A study of Mus musculus with 2 samples.

Results

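Gabra2, Gabra3, Gabra4, Gabra5, Gabrb1, Gabrb2 and Gabrd encode subunits of the GABA-A receptor, the main fast inhibitory receptor of the brain. They are 7 of 21755 protein-coding genes on chromosomes 1 to 19 and X. Their accessible chromatin was read by DNase-seq in left cerebral cortex. The 2 libraries belong to 1 group: tissue of B6CASTF1/J females, the hybrid of C57BL/6J and CAST/EiJ, aged 2 months, with no treatment or introduced allele named. There is no other group to compare with. The labels number them as biological replicates 1 and 2 and give the females separate numbers, but list 1 donor entry for both, so the spread between the libraries is taken as that of separate animals only on those numbers. A locus was the gene body with 10 kb either side, and a promoter was any annotated transcription start site (TSS) with 500 bp either side.

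The GABA-A receptor is a ring of subunits around a chloride channel, and GABA binds where an α subunit meets a β subunit. The α subunit sets much of the receptor's place in the cell and its response to benzodiazepines. Receptors with a γ subunit gather at synapses, whereas those with the δ subunit lie outside them and carry a lasting, tonic current. Many subunit genes lie side by side in clusters, as Gabra2, Gabra4 and Gabrb1 do on chromosome 5. In bulk tissue a weak site in every cell and a strong site in few cells cannot be told apart.

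DNase-seq counts the cuts that DNase I makes in open DNA. A peak is a stretch of dense cutting. Its signal is the authors' cut density, scaled by them to read depth. The step between signal values puts the depth at 206 M cuts for replicate 1 and at 208 M for replicate 2. The libraries had 128323 and 119651 peaks and 340109 and 284674 footprints, which are short protected stretches inside open DNA. A peak found in both libraries is called shared, and one whose centre lies over 1 kb from every TSS is called distal. Marker genes followed the label: shared promoter peaks were found at 5 of 5 excitatory neuron, 3 of 3 telencephalic, 5 of 5 inhibitory neuron and 5 of 5 astrocyte genes, and at 2 of 5 oligodendrocyte, 1 of 5 microglial and 2 of 5 endothelial genes. None of the 5 hindbrain and cerebellar genes and none of the 5 genes of other tissues had one (0 of 5 each), and the open promoters thus included those of neuronal, glial and endothelial markers.

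Sequences are shown for the sites that carry the results, on mm10 and 5′ to 3′ on the strand of the gene, with capitals for bases that lay inside a footprint in both libraries. The promoter set comes first: the strongest promoter of the family (Gabra2 start 1, chr5:71095930-71096229, minus strand), part of the Gabra5 promoter (chr7:57510030-57510149, minus strand), the internal promoter of Gabrb1 with the same footprint in both animals (Gabrb1 start 2, chr5:71699821-71699961, plus strand), and the peak at the weakest promoter (Gabra3 start 2, chrX:72655758-72656030, minus strand). The Gabra2 stretch lies upstream of the TSSs of start 1 and covers none of them. The Gabra3 stretch lies downstream of the TSSs of start 2 and covers none of them. It has no capitals because no footprint was common.
Gabra2 start 1: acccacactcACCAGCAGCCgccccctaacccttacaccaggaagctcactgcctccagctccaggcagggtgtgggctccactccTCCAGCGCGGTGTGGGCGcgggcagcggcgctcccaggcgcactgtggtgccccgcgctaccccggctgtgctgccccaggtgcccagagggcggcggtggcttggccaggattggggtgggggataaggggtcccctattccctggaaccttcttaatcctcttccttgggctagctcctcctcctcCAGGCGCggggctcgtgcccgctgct
Gabra5 start 1: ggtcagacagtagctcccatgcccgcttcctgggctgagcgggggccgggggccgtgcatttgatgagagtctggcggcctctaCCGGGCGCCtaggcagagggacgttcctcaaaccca
Gabrb1 start 2: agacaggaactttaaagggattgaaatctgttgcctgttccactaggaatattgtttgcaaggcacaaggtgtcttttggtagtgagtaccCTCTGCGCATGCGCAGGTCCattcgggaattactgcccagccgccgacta
Gabra3 start 2: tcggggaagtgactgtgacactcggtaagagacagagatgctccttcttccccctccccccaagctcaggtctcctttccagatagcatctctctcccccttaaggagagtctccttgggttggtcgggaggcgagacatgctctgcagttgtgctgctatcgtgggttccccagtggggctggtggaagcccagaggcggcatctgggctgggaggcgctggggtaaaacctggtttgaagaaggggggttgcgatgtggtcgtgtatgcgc

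The intronic set holds the strongest distal peaks of 4 genes: Gabra2 intron 4 (chr5:71026081-71026260, minus strand), Gabra5 intron 5 (chr7:57474261-57474420, minus strand), Gabrb1 intron 4 (chr5:71917301-71917520, plus strand) and Gabrb2 intron 4 (chr11:42423381-42423560, plus strand). For Gabrb1 this is the second strongest, since the strongest lies close to start 2.
Gabra2 intron 4: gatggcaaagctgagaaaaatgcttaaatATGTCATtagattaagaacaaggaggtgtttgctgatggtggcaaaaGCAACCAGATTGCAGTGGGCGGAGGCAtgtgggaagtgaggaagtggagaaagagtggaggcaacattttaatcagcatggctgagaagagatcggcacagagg
Gabra5 intron 5: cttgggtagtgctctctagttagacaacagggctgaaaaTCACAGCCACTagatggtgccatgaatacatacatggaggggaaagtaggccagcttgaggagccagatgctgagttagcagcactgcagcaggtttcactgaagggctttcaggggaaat
Gabrb1 intron 4: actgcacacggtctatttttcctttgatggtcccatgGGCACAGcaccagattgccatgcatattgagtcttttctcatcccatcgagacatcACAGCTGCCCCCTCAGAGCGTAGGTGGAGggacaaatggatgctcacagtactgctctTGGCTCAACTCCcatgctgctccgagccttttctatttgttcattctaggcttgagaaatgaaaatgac
Gabrb2 intron 4: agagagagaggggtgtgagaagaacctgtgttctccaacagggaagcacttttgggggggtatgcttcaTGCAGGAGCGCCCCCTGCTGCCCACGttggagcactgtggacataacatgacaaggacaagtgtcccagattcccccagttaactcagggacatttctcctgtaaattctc

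All 7 genes had an open promoter in both animals, and 6 of the 7 promoters were of moderate strength. A shared promoter peak was present at 7 of 7 genes, against 64.9% of all protein-coding genes and 87.3% of genes with loci of 75 to 500 kb. The median promoter signal of the 7 was 1.79, against 2.94 over the 14124 genes with such a peak and 2.60 within the class of long loci. Gabrd, whose locus is short, belongs to a class with 54.5%. Gabra3 was the weakest, and the other 6 stood between percentile 21.5 (Gabrd) and 42.1 (Gabra2) of the 14124 genes. TSSs at most 500 bp apart were joined into a start, which gave the 7 genes 13 starts, numbered from the 5′ end of each gene.

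**Figure D1:**
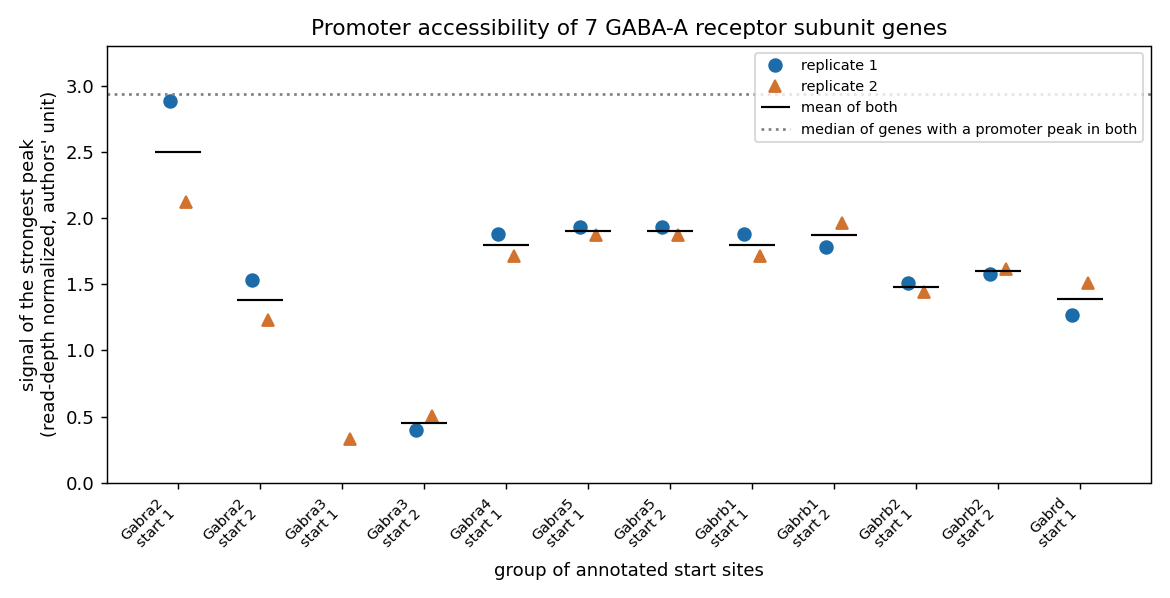
Signal of the strongest peak at each start (vertical axis, read-depth normalized units of the authors) for replicate 1 (circles) and replicate 2 (triangles), with their mean as a bar; the dotted line is the median of 2.94 over genes with a promoter peak in both libraries. Gabra2 start 1 is the highest at 2.88 and 2.12, Gabra3 is the lowest, and start 1 of Gabra4 and Gabrb1, like both starts of Gabra5, show the same strongest peak entered under both names; Gabra2 start 3, with no peak, is not drawn.

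Among the α subunits, Gabra2 encodes α2, found at inhibitory synapses of the forebrain and on the axon initial segment of pyramidal cells. Its start 1 (chromosome 5, TSSs at 71095809 to 71095849) had the highest promoter signal of the family, 2.88 in replicate 1 and 2.12 in replicate 2, a mean of 2.5 ± 0.54 (SD, n = 2). Read as cuts, the peak heights were 595 (548 to 645, exact 95% Poisson interval) and 441 (401 to 484), so the libraries differed by more than counting error. Such intervals cover counting error only, and differences between animals and between library preparations cannot be told apart. Start 2, with TSSs of non-coding transcripts, had 1.54 and 1.23 (1.38 ± 0.22; SD, n = 2). Start 3, a single TSS inside the gene at 71013684, had no peak in either library. The printed promoter of start 1 lay within a merged peak of 680 bp with 12 footprints in replicate 1, 11 in replicate 2 and 7 in common.

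Gabra5 encodes α5, a mostly extrasynaptic subunit of hippocampus and deep cortical layers. It had 1.93 and 1.87 at its start (chromosome 7, TSSs at 57510009 to 57510059), a mean of 1.90 ± 0.046 (SD, n = 2), and the same peak reached within 500 bp of start 2. Over start 2 itself (TSS at 57509371) lay another shared peak, at 1.11 and 0.855 (0.982 ± 0.18; SD, n = 2), below that of start 1 in both animals. Gabra4 encodes α4, a subunit that joins δ in extrasynaptic receptors of the forebrain and is insensitive to classical benzodiazepines. It had 1.88 and 1.71 (1.79 ± 0.12; SD, n = 2). Gabra5 was higher than Gabra4 in each animal, but replicate 1 of Gabra4 lay above replicate 2 of Gabra5, so the ranges overlapped.

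Gabra3 encodes α3, a synaptic subunit known from deep cortical layers and the thalamic reticular nucleus, and is the X-linked gene of the 7. Start 2 (chromosome X, TSSs at 72656186 to 72656246) had 0.402 and 0.504, a mean of 0.453 ± 0.072 (SD, n = 2), or 83 cuts (66.1 to 103) and 105 cuts (85.9 to 127). In both libraries the peak with this value lay inside the gene, downstream of these TSSs, and counted through the 500 bp limit. Start 1, the outermost TSS at 72656848, had a peak in replicate 2 alone, at 0.331. In the authors' smaller peak list, at an FDR of 0.001, replicate 1 had no Gabra3 promoter peak. Gabra3 stood at percentile 2.86 of the 14124 genes with a promoter peak. X-linked genes were lower in general: 48.9% of 948 had a promoter peak in both animals, and their median signal was 1.43, against 3.01 on the autosomes, and within the X-linked genes Gabra3 stood at percentile 8.94. Its lowest cut-rate false discovery rates (FDR) were 0.00481 and 2.24e-05, where Gabra2 start 1 had 7.50e-35 and 1.13e-20.

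Of the β subunits, Gabrb1 encodes β1, and Gabrb2 encodes β2, which is abundant in cortex and forms part of many synaptic receptors. Gabrb1 start 2 (chromosome 5, TSS at 71699932) had 1.78 and 1.96 (1.87 ± 0.13; SD, n = 2), and start 1 had 1.88 and 1.71, in the peak it shares with Gabra4. The 2 starts lie 41.8 kb apart and their values overlapped. Gabrb2 start 2 (chromosome 11, TSSs at 42421279 to 42421350) had 1.58 and 1.61 (1.60 ± 0.024; SD, n = 2), and start 1 had 1.51 and 1.44 (1.48 ± 0.050; SD, n = 2). Both libraries were thus higher at start 2 of Gabrb2, by a small margin. Gabrd encodes δ, the partner of α4 in tonic inhibition. Its promoter (chromosome 4, TSSs at 155398036 to 155398112) had 1.26 and 1.51 (1.39 ± 0.17; SD, n = 2), which stands below the promoters of Gabra4 and Gabra5 in both animals.

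The promoters were unlike in base composition. In the window of 250 bp before to 50 bp after the outermost TSS of each start, CpG dinucleotides numbered 38 at Gabra5 start 2, 33 at Gabrb1 start 1, 28 at Gabrd and 25 at Gabra2 start 1, but 9 at Gabrb1 start 2, 7 at Gabrb2 start 1, 3 at Gabra3 start 2 and 0 at Gabra3 start 1. The median over the 13 starts was 12, beside 11 over all protein-coding genes. For all genes, here and for the motifs below, only the outermost start of each gene was taken, whereas the 13 include internal starts. The SP/KLF letters GGGCGG, searched like all motifs on both strands, were present at 4 of 13 starts (43.4% of all promoters) and the TATA box letters TATAAA at 2 of 13 (12.7%), both starts without a shared peak. The NRF1 motif was present at 1 of 13 (1.74%).

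That NRF1 match was in the internal promoter of Gabrb1. In the printed sequence of Gabrb1 start 2 it spans positions 95 to 106, counted from the 5′ end, and all 12 of its bases are in capitals. The footprint ran from 71699912 to 71699931 in replicate 1 and from 71699912 to 71699931 in replicate 2, 20 bp wide in each, and ended next to the TSS at 71699932. A match and a footprint do not show which protein was bound.

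Gabra4 and Gabrb1 start head to head in open chromatin. The genes overlap by 196 bp at their 5′ ends, and with both libraries merged, 1 peak of 680 bp (chromosome 5, 71657801 to 71658480) covers the overlap. It held 8 footprints in replicate 1 and 6 in replicate 2, with 5 in common. Replicate 1 had 1 peak over this stretch, at 1.88. Replicate 2 had 2 separate peaks, at 1.71 over the internal Gabra4 starts and at 0.797 over the outermost Gabra4 start, and the Gabrb1 start lay in the gap between them. Toward Gabra4, 2 further shared peaks followed, at 0.528 and 0.610 (0.569 ± 0.058; SD, n = 2) and at 1.06 and 0.908 (0.982 ± 0.10; SD, n = 2). Whether the site serves one gene or the other was not tested.

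**Figure D2:**
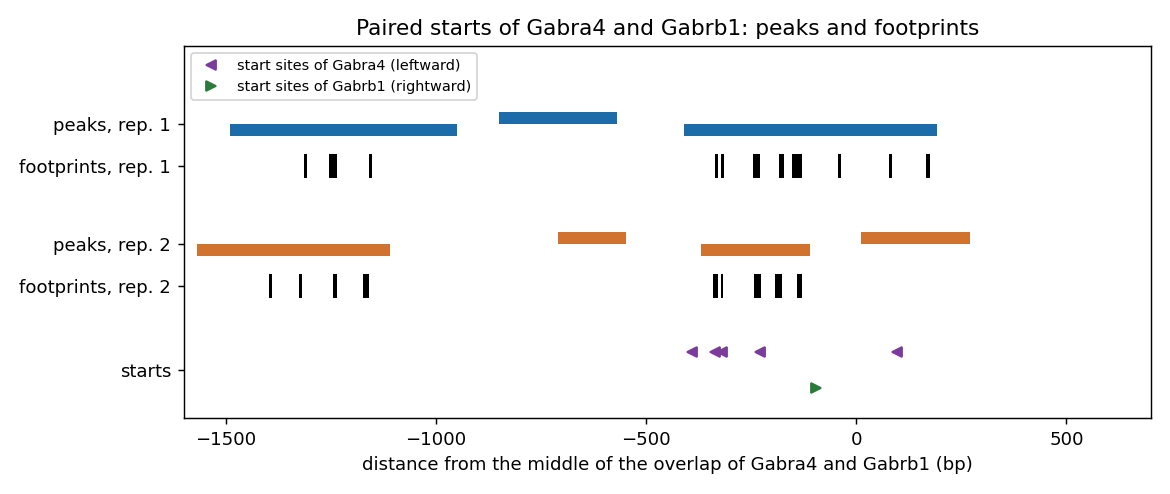
Peaks (coloured bars, drawn at alternating heights only to keep neighbours apart) and footprints (black ticks) of each replicate around the overlap of Gabra4 and Gabrb1; the horizontal axis is the distance in bp from the middle of the 196 bp overlap, with arrowheads at the annotated starts. Footprints of replicates 1 and 2 line up at 5 places under the starts, and the open stretch extends to the left, into Gabra4.

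Away from the starts, shared accessible sites lay in introns of 6 genes, and Gabra3 had no shared site there. The 7 loci cover 1386.5 kb once overlaps are joined and held 72 merged peaks. Both animals had 43 of them (59.7%, against 52.2% of all merged peaks), replicate 1 alone had 7 and replicate 2 alone had 22. Of the 43, 14 lay within 1 kb of a TSS (33.2% of all shared peaks did) and 29 were distal. At least 1 shared distal peak was found at 6 of 7 genes, against 58.9% of all protein-coding genes, 87% of loci of 75 to 500 kb and 47.3% of loci of 20 to 50 kb. Of the 29, 25 were intronic, 0 exonic and 4 outside the gene. These 4 were 3 past the 3′ end of Gabrd and 1 before the 5′ end of Gabra4, where it lies within Gabrb1. The share of all shared distal peaks in introns and exons is not given here, so these positions stand without a background. The number of distal peaks depended on calling: 13 with the authors' smaller list (0 at Gabra4), and 37 and 46 in replicates 1 and 2 alone.

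**Figure D3:**
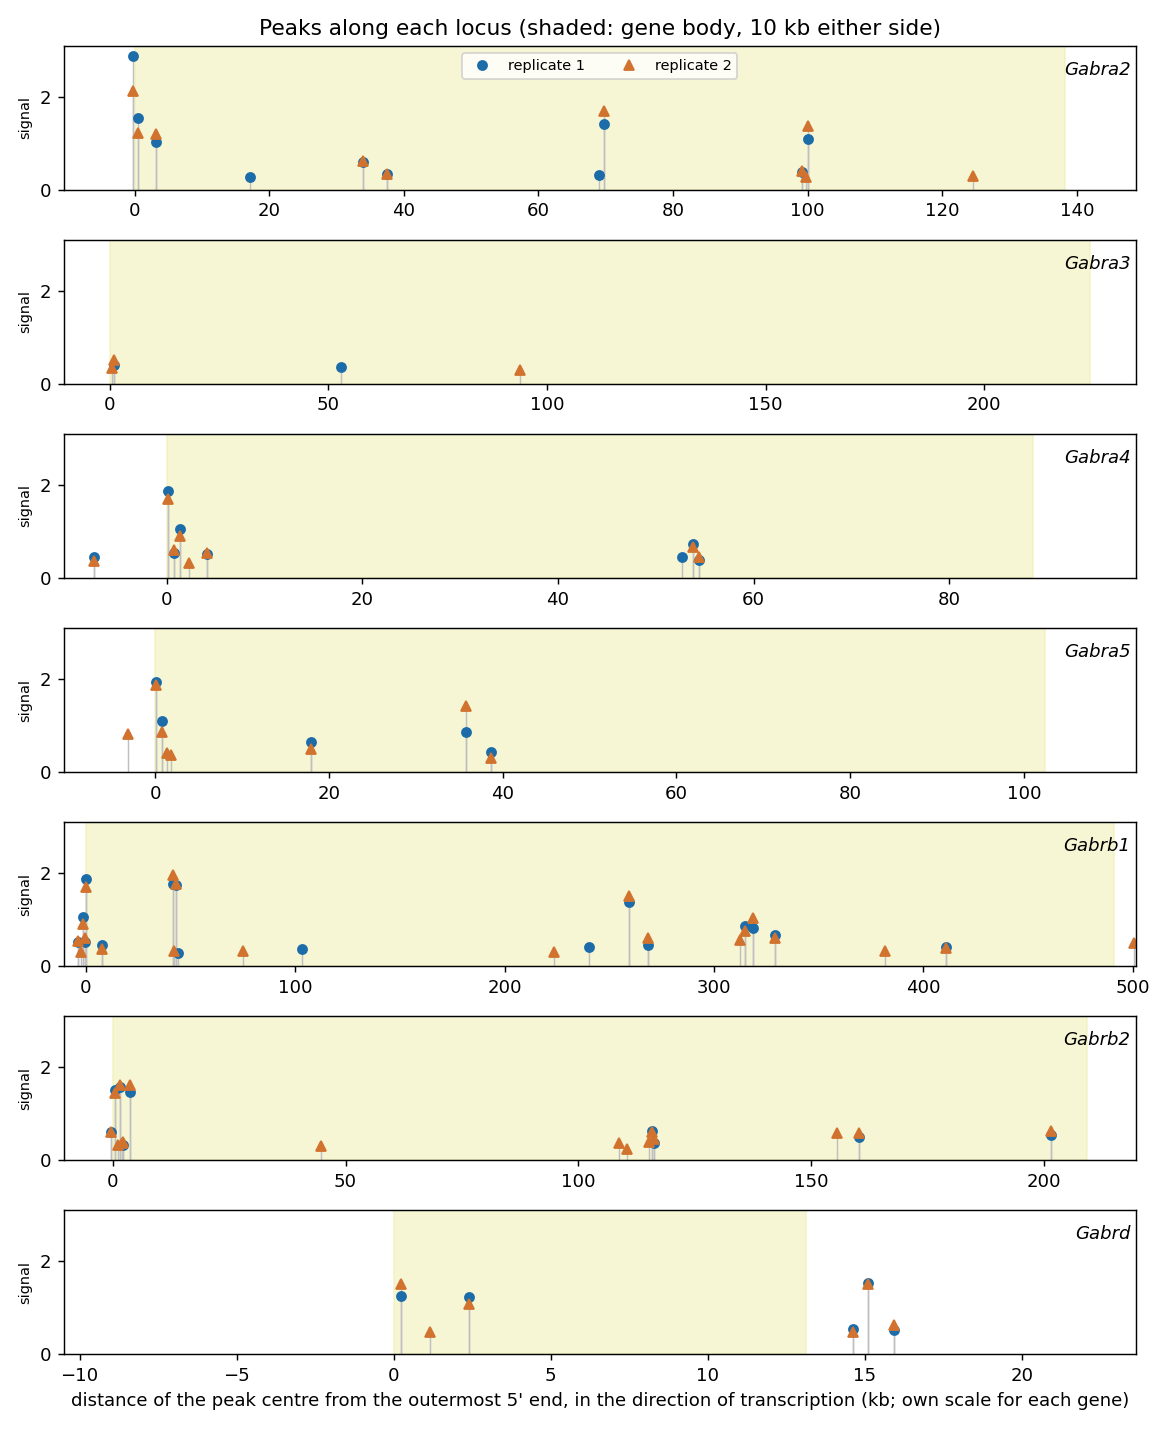
Every peak along the 7 loci, with the authors' signal (vertical axis, same scale in all panels) against the distance of the peak centre from the outermost 5′ end in kb, for replicate 1 (circles) and replicate 2 (triangles); shading marks the gene body, and each gene has its own horizontal scale. Paired symbols are shared peaks: Gabra2, Gabrb1, Gabrb2 and Gabrd have intronic peaks above 1 in both animals, whereas Gabra3 has 1 shared peak, at its promoter, and only peaks of 1 library farther in.

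Per length of locus, Gabrd was the densest and Gabra3 the emptiest. Gabrd had 4 shared distal peaks in 33.1 kb, or 12.1 per 100 kb, at percentile 95.4 of loci of 20 to 50 kb, whose median was 0. Gabra2 had 6 in 158 kb (3.79 per 100 kb; percentile 71.6 of loci of 75 to 500 kb) and Gabra4 had 4 in 109 kb (3.68; 70.3). Near the class median of 2.31 were Gabra5 with 3 in 122 kb (2.45; 53.0) and Gabrb2 with 5 in 229 kb (2.18; 47.1). Gabrb1 had 9 in 511 kb, which is just longer than that class (1.76; 39.5). Gabra3 had 0 in 244 kb (percentile 6.51), and 57.2% of the 180 X-linked loci of this length had at least 1. Small counts make these densities coarse: 3 of the 4 Gabrd peaks lie beyond its 3′ end, and its body alone held 1.

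**Figure D4:**
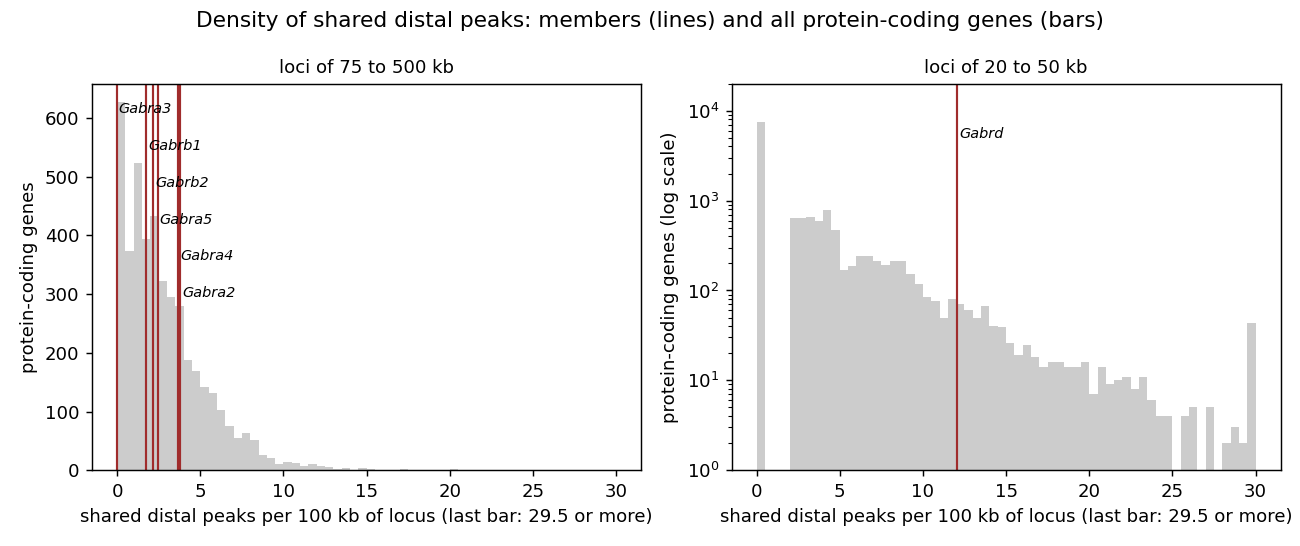
Shared distal peaks per 100 kb of locus (horizontal axis) for the 7 genes (red lines) over the distribution of all protein-coding genes of the same length class (grey bars, number of genes; log scale on the right); Gabrb1, at 511 kb, is drawn with the loci of 75 to 500 kb. Gabra3 stands at 0, Gabra2 and Gabra4 lie close together at 3.79 and 3.68, and Gabrd stands at 12.1, in the upper tail of short loci.

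The stretches with listed cut-rate FDR, joined where they touch and at least 50 bp long, gave a similar order. These hotspots covered 20.6 kb of the loci in replicate 1 and 21.5 kb in replicate 2, which is 1.48% and 1.55% of their length. They covered 6.95% and 8.01% of Gabrd, 2.84% and 2.55% of Gabra4, 2.75% and 2.49% of Gabra2, 1.81% and 2.03% of Gabra5, 1.66% and 1.99% of Gabrb2 and 1.31% and 1.30% of Gabrb1. Gabra3 had 0.238% and 0.329%, at percentile 4.14 of long loci, whose median was 2.12%. Gabrd stood at percentile 77.8 of loci of 20 to 50 kb, lower than its 95.4 by distal peaks. The joined length was 11.7 kb, as a mean of both libraries, at an FDR of 0.001.

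Gabra2 had strong sites far inside the gene, below its promoter. In Gabra2 the peak in intron 4, 69.7 kb from the 5′ end, had 1.42 and 1.70 (1.56 ± 0.20; SD, n = 2), and the one in intron 8, at 100 kb, had 1.09 and 1.37 (1.23 ± 0.20; SD, n = 2). The intron 4 peak held a footprint of 30 bp in each library, offset by 3 bp. In its printed sequence the SP/KLF letters lie at positions 93 to 98, all 6 in capitals. It was the only 1 of the 29 distal peaks with these letters, against 7.69% of all 53794 shared distal peaks.

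In Gabra5 the intron 5 peak, at 35.7 kb, had 0.872 and 1.43 (1.15 ± 0.39; SD, n = 2), the lowest ratio of replicate 1 to replicate 2 among the 43 shared peaks (0.611). The next, in intron 2 at 18.0 kb, had 0.644 and 0.485 (0.565 ± 0.11; SD, n = 2). A peak 3.1 kb before the 5′ end of Gabra5 reached 0.821 in replicate 2 but was not called in replicate 1, and it was the strongest of the 29 peaks seen in 1 library. The Gabra5 locus overlaps 1 other subunit gene, and which gene its sites serve was not tested. In Gabra4 the strongest distal peak, in intron 8 at 53.8 kb, had 0.722 and 0.672 (0.697 ± 0.035; SD, n = 2), and the peak in intron 2 at 4.1 kb had 0.523 and 0.533. Gabra3 had 1 intronic peak in replicate 1 (0.363) and 1 in replicate 2 (0.288), at different places in intron 1.

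The β genes held the widest distal site. In Gabrb1 a merged peak of 840 bp, centred 1068 bp past start 2 and so just distal by the limit of 1 kb, had 1.75 and 1.77 (1.76 ± 0.013; SD, n = 2). It held 10 footprints in replicate 1, 8 in replicate 2 and 6 in common. In intron 4, at 259 kb from the 5′ end, a peak had 1.38 and 1.51 (1.45 ± 0.093; SD, n = 2). Its printed sequence shows 3 common runs, the longest from footprints of 30 bp in replicate 1 and 29 bp in replicate 2, and it held none of the 14 motifs searched. In Gabrb2 the peak in intron 4, 3.7 kb from the 5′ end, had 1.46 and 1.62 (1.54 ± 0.11; SD, n = 2), with overlapping footprints of 26 bp and 29 bp, and the next, in intron 6 at 115.8 kb, had 0.630 and 0.605 (0.617 ± 0.017; SD, n = 2).

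Gabrd, the short gene of the 7, had its strongest distal peak 15.1 kb from its 5′ end and beyond its 3′ end, with 1.54 and 1.51 (1.52 ± 0.020; SD, n = 2). Its values overlapped those of the Gabrd promoter. The peak in intron 1, at 2.4 kb, had 1.24 and 1.08 (1.16 ± 0.12; SD, n = 2). The remaining distal peaks, at 14.6 kb and 15.9 kb, flanked the strongest one and had 0.552 and 0.480 (0.516 ± 0.051; SD, n = 2) and 0.523 and 0.634 (0.579 ± 0.078; SD, n = 2). Which gene a site beyond the 3′ end serves was not tested.

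The cluster on chromosome 5 had accessible sites between its genes as well. The stretch described is bounded by the genes listed here, from the 3′ end of Gabra2 to that of Gabrb1 (70957597 to 72149037). This stretch spans 1191 kb and held 33 shared peaks, 27 of them distal. The gap of 474 kb between Gabra2 and Gabra4 held 11 shared peaks, that at Gabra2 start 1 included, and 10 of them were distal, or 2.11 distal peaks per 100 kb. The bodies of Gabra2, Gabra4 and Gabrb1 had 4.34, 3.39 and 1.63 per 100 kb. Most sites in the gap were weak: 9 of the 10 had a mean signal of 0.193 to 0.574. The exception, at 71502181 to 71502360, had 1.37 and 1.80 (1.58 ± 0.30; SD, n = 2), the level of the strongest intronic site of Gabra2, and lies 406 kb from the 5′ end of Gabra2. It lies inside Cox7b2, another gene of the gap, 45.9 kb from the nearest annotated TSS.

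At the shared sites of these loci the libraries differed little. The ratio of replicate 1 to replicate 2 ran from 0.611 to 1.46 over the 43 peaks, with 19 higher in replicate 1 and 24 in replicate 2, and all 43 lay within 2-fold after centring on the median of all shared peaks (99.2% of all shared peaks did). Of the peaks of replicate 1 in the loci 87.0% overlapped one of replicate 2, against 66.7% over the whole library. For replicate 2 the share was 68.6%, against 72.6% over the whole library. The 29 peaks of 1 library were weak, with signals of 0.245 to 0.821 and a median of 0.336, and 22 of them were from replicate 2, although replicate 1 had more peaks in all. The median signal of the 29 distal shared peaks was 0.603, against 0.665 over all shared distal peaks.

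**Figure D5:**
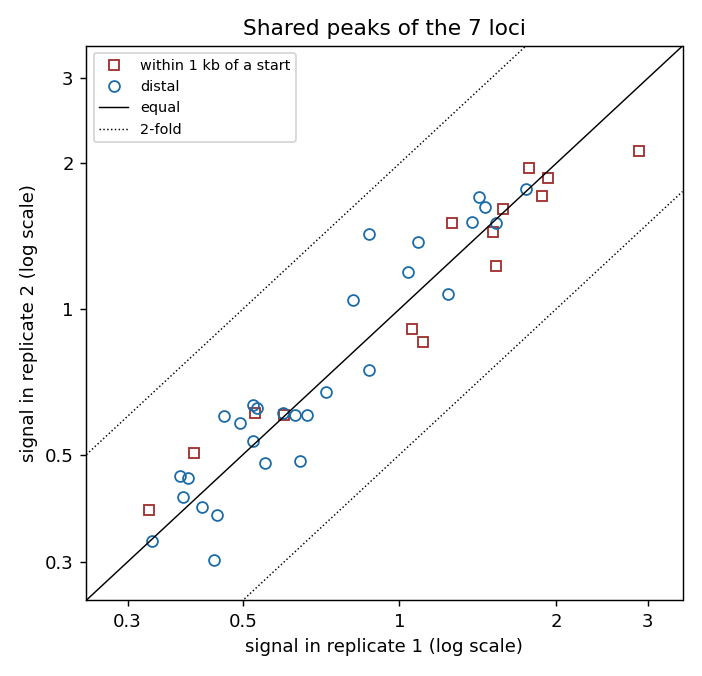
Signal of the 43 shared peaks in replicate 2 against replicate 1 (both axes on a log scale, authors' units), with squares for peaks within 1 kb of a start and circles for distal ones; the solid line marks equal values and the dotted lines a 2-fold difference. All 43 lie inside the dotted lines, and squares and circles overlap in range.

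Footprints repeated less often than peaks. The loci held 159 in replicate 1 and 148 in replicate 2, of which 37.1% and 40.5% overlapped a footprint of the other library, against 39.5% and 46.9% over all footprints. Gabrb1 had 48 and 45, Gabra2 33 and 28, Gabrd 26 and 17, Gabrb2 25 and 30, Gabra4 20 and 23, Gabra5 20 and 16, and Gabra3 3 and 6, none of them in common. Per length Gabrd had the most, 78.5 and 51.3 per 100 kb, Gabrb1 had 9.39 and 8.81, and Gabra3 had the fewest, 1.23 and 2.46. In the 7 loci 59 footprints were common to both libraries, and 26 of the 43 shared peaks held at least 1 (68.1% of all shared peaks did).

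Of the 59 common footprints, 48 overlapped none of the 14 motifs searched (78% of all common footprints did). The SP/KLF letters were overlapped by 6, the NEUROD letters CAGATGG by 2, and MEF2, NRF1, NFI and the TATA box by 1 each. For single motifs the share over all common footprints is not given here, so these counts cannot be read as a trait of the 7 genes. In 150 bp windows centred on the 29 distal peaks, 9 held any motif (34.2% of all shared distal peaks did). The AP-1 letters TGACTCA were in 4 (13.8%, against 7.30%), in Gabra2, Gabra4 and, with 2, Gabrb2. The NEUROD letters, those of a neuronal bHLH family, were in 4 (13.8%, against 9.05%), with 2 in Gabrb1, 1 of them also within the Gabra4 locus, and 1 each at Gabrb2 and Gabrd. The NFI motif was in 1 (3.45%, against 0.799%), at Gabra2. CTCF, an architectural protein, had an exact match in 0 of 29, against 7.82% of all shared distal peaks.

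With 1 mismatch allowed, a setting added after the sequences had been seen, CTCF letters were in 4 of 29 (13.8%), against 21.2% of all. At 1 of these, the Gabrb2 intron 4 peak, the match at positions 79 to 90 of the printed sequence lies in capitals over all 12 bases. At the Gabra5 intron 5 peak it lies at positions 46 to 57, with 5 bases in capitals. In both, the absence of exact letters says nothing about the factor.

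Set beside related genes, the 12 other GABA-A receptor subunit genes had an open promoter in both animals at 7 of 12 (median signal 0.967) and at least 1 shared distal peak at 11 of 12, with a median of 2.58 distal peaks per 100 kb. The 7 genes described here had medians of 1.79 and 2.45. Genes of the inhibitory synapse (scaffolds, receptor trafficking, the chloride transporter KCC2 and GABA-B receptors) had an open promoter in both animals at 14 of 14 (median signal 3.29) and a shared distal peak at 12 of 14, with a median of 5.04 per 100 kb. Over all protein-coding genes the shares were 64.9% and 58.9%, with medians of 2.94 and 1.84. The densities of these lists were not matched for locus length. Among the inhibitory synapse genes the highest promoter was that of Clptm1, which holds back GABA-A receptors inside the cell, at 4.73 and 6.03. The lowest of the inhibitory synapse genes was that of Lhfpl4, an auxiliary subunit of synaptic receptors, at 1.80 and 1.46. These counts were not tested, since genes are not replicates and the lists were chosen with earlier results known.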

How the data were processed

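The 2 DNase-seq libraries come from left cerebral cortex. Alignment was to mm10, per the labels. Calls were made by the authors on each library alone, with tools not given in the sources used. Peak tables hold the authors' deposited signal, normalized to read depth. The larger list (FDR 0.05) was used, with the smaller (0.001) as an alternative. Footprint tables give the FDR as a deposited fraction, 0.01 throughout. Cut-rate tables hold deposited q-values (adjusted p-values) below 0.05. In both libraries 100% of the signal values below 1000 steps were whole multiples of a step within 0.05 of a step, and heights were read as cuts from it. Reads carrying CAST/EiJ differences could be lost in alignment to a C57BL/6J reference; alleles were not analysed here.

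Genes came from GENCODE M21 and sequence from GRCm38.p6, the same build as mm10. Peaks of both libraries overlapping by at least 1 bp were merged. Percentiles are shares of genes with lower values, with ties placed at their middle, taken within locus length classes of 75 to 500 kb and 20 to 50 kb. Of each locus, every start with a peak and the 2 strongest shared distal peaks are named, plus the 2 Gabrb1 peaks with most common footprints; the gap site on chromosome 5 and the gene it lies in were named after the values were seen. Promoter stretches were trimmed to at most 30 bases of annotated UTR. All libraries form 1 group, so no test was made. The genes, lists and motifs were chosen with earlier results of these data known. Of 15 inhibitory synapse genes asked for, 14 were found. Code was tested on simulated peaks (Python 3.11.15, pandas 2.3.3, pysam 0.24.0, samtools 1.23.1).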

Additional observations from a re-analysis of the deposited data

How the results depend on the processing

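No paired analysis was possible because both libraries belong to 1 group. With the smaller peak list the shared peaks numbered 24 in place of 43 and the distal ones 13 in place of 29. In single libraries, with overlapping peaks of a library joined, the peaks ranged from 52 to 68, the distal peaks from 37 to 46, and the footprints from 148 to 159, in place of 59 common to both. The median promoter signal ranged from 1.71 to 1.88 in single libraries (1.79 for both). Hotspots covered 11.7 kb in place of 21.04 kb at an FDR of 0.001. Genes with a shared promoter peak numbered 6 in place of 7 with the smaller list (61.0% of all genes) and with the outermost 5′ end alone (59.4%), each time through Gabra3. Distal windows with any motif numbered 12 in place of 9 of 29 with windows of 300 bp (50.1% of all shared distal peaks). They also numbered 12 when CTCF could have 1 mismatch, an alternative chosen after seeing the data. For that alternative the share over all shared distal peaks is not given here. With 50 kb either side of the genes, the shared peaks numbered 64 in place of 43 and the distal ones 39 in place of 29. Over single genes, 26 of 118 alternative values were counted as moved and 92 were not. The 92 were not all unchanged: Gabra2 had 9 distal peaks in place of 6 with 50 kb either side. Whether greater depth would add weak sites cannot be read from the calls.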
